A study of Mus musculus with 34 samples.

Results

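The genes described here drive DNA replication and cell division. They were chosen as a fixed list of 39 mouse genes: each gene was represented by the probe whose RefSeq accession maps to it and, where several did, by the probe with the highest mean signal in the lung channel. All 39 were on the array, through 51 probes, out of 20660 genes that could be named there. The 34 arrays compared lung RNA of female C57BL/6 mice, aged 5 to 7 weeks, with a common reference, 28 days after the mice received 1 dose of a carbon nanotube material into the trachea. The materials carry code names, NRCWE-043, -044 and -045, and each was given once, as 18 or 54 µg in 40 µl. NRCWE-043 had 5 arrays at 18 µg and 5 at 54 µg. For NRCWE-044 there were 6 and 5, for NRCWE-045 3 and 5, and 5 further arrays were controls. The labels leave out what was given to the control mice, and 1 control, replicate 3, carries NRCWE-043 with 0 µg in its title. No allele or transgene is named for any group, and nothing in the labels says whether tissue of several mice was pooled.

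Each array carried 200 ng of lung RNA labelled with Cy5, the red dye, and reference RNA from 11 mouse cell lines labelled with Cy3, the green dye; the dyes were never exchanged. The value of a gene is therefore the log2 ratio of lung to reference, and a value of -3 stands for a lung signal far below that of the cell lines. Replicate numbers follow the order of the deposit, since the labels give none, and p-values measure the spread between these arrays. The lung channel was clearly above background for 50.8 to 68.5% of probes, depending on the array. The probes of lung cell markers were measured as well: 7 of 7 alveolar type 2 genes, 5 of 6 alveolar type 1 genes and 9 of 9 endothelial genes passed the filter on dim probes.

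A cell that divides first loads the MCM helicase onto origins of replication, with Cdc6, and then copies its DNA with the sliding clamp PCNA while ribonucleotide reductase, thymidylate synthase and thymidine kinase supply nucleotides. Cyclin B with Cdk1 then starts mitosis, in which Aurora and Polo kinases, kinesins and kinetochore proteins move the chromosomes, until the anaphase-promoting complex with Cdc20 and Ube2c destroys the cyclins. E2F factors switch on the genes of the first steps. The DREAM and B-MYB-FOXM1 complexes act on the genes of mitosis through an element called CHR, and the promoters of these genes often hold CCAAT boxes as well. The adult lung at rest holds few dividing cells, and proliferating macrophages, lymphocytes, epithelial and endothelial cells are known to appear after injury.

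The promoters of 6 members are shown because they carry the letters of those elements, and because Mki67, Top2a, Ccnb1 and Ube2c belong to the genes of mitosis while Mcm5 and Mcm6 belong to those of replication. Each stretch ends at the base before the annotated start, reads 5′ to 3′ on the strand of its gene, and comes from RefSeq on build GRCm38.p6. Capitals mark, on either strand, the CHR letters TTTGAA with their variant form TTTAAA. They also mark CCAAT boxes, and E2F letters searched as TTTCGCGC, as TTTGGCGC and, in the shortest form, as TTCCCGC. The Mki67 stretch is chr7:135716380-135716529 on the minus strand, that of Top2a chr11:99024190-99024299 on the minus strand, and that of Ccnb1 chr13:100786487-100786596 on the minus strand. The Ube2c stretch is chr2:164769829-164769928 on the plus strand, that of Mcm6 chr1:128359706-128359825 on the minus strand, and that of Mcm5 chr8:75109349-75109508 on the plus strand.
Mki67: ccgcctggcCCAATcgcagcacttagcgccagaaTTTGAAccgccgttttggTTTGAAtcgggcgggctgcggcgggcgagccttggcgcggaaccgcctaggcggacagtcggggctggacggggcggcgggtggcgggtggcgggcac
Top2a: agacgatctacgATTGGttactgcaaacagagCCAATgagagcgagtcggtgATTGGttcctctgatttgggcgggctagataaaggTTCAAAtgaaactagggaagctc
Ccnb1: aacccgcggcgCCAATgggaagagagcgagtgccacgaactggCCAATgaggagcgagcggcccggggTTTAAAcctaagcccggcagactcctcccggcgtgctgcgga
Ube2c: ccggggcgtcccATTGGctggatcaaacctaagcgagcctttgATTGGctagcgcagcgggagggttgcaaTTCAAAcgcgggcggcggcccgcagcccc
Mcm6: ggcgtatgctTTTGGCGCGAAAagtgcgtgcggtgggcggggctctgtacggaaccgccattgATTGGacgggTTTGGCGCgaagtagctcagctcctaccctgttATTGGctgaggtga
Mcm5: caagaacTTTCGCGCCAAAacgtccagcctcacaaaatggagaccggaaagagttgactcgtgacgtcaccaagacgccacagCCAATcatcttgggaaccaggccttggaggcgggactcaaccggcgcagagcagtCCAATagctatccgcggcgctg
RefSeq promoters, from 250 bases before to 50 bases after the start, were at hand for 33 of the 39 members. CHR letters were found in 23 of these 33 (69.7%), against 30.57% of the 27025 genes with a promoter of the same length. CCAAT letters were found in 25 (75.76%), against 41.06% of all genes, and E2F letters in 7 (21.21%), against 6.098%. By role, 5 of 8 genes of origin licensing and the replication fork held E2F letters, against 0 of 6 mitotic kinases and checkpoint genes. All 4 cyclin and Cdk1 promoters held CHR letters, as did 3 of the 8 licensing promoters. Within the 250 bases before the start alone, the shares in members were 54.55% for CHR, 75.76% for CCAAT and 18.18% for E2F letters, against 28.12, 37.49 and 5.069% of all genes. These are matches of letters, not bound sites.

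The lung signal of these genes was measurable for most but not all members. Of the 39 members, 35 cleared the background in the lung channel on 3 or more arrays and were tested, in a fit of 29316 probes, 1 for each gene or unnamed accession. Of these, 29 were above background on all 34 arrays, while Tyms and Bub1 were on 33, Cdc45 on 26, Kif2c on 18, Cdc6 on 15 and Cdk1 on 10. The 4 members not tested were the mitotic kinase genes Aurkb (0 arrays) and Ttk (1 array), the cyclin gene Ccne2 (0 arrays) and the kinetochore gene Cenpf (2 arrays). Aurkb and Ccne2 were also not above background in the reference channel (0 arrays), where Ttk was on 34 and Cenpf on 31. In all 35 tested members the mean ratio over the 34 arrays was below 0. It was -3.70 ± 0.44 for Mki67, -3.94 ± 0.31 for Top2a, -2.18 ± 0.21 for Mcm6 and -1.83 ± 0.17 for Pcna (SD, n = 34), and ratios of different probes are not set against each other here. In tissue RNA of this kind, fewer dividing cells and less RNA per cell cannot be told apart.

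One control array stood apart from the others. The mean log2 ratio of the 35 tested members was -2.41 on control replicate 1, the highest of all 34 arrays, against -2.98, -2.93, -2.93 and -2.92 on control replicates 2 to 5. On the 29 treated arrays it ran from -3.03 to -2.42, with a median of -2.77. Control replicate 1 lay above the other 4 controls in 29 of the 35 members, against 24.3% of all tested probes. Replicates 1 and 2 sat on the same slide, slide 1, where the 7 arrays other than replicate 1 had means of -3.02 to -2.81. In the lung channel alone the mean log2 signal of the members was 9.45 on replicate 1 and 8.69 to 8.97 on the other 4 controls, while the reference channel read 11.52 on replicate 1 and 11.36 to 11.49 on the other 4. The share of probes above background on replicate 1 was 64.7%, within the range of all arrays, and its correlation with the other arrays was typical (median 0.95). Because this array is 1 of only 5 controls, the medians of the comparisons with the controls, and the changes of the members described most fully, are given with and without it.

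**Figure D1:**
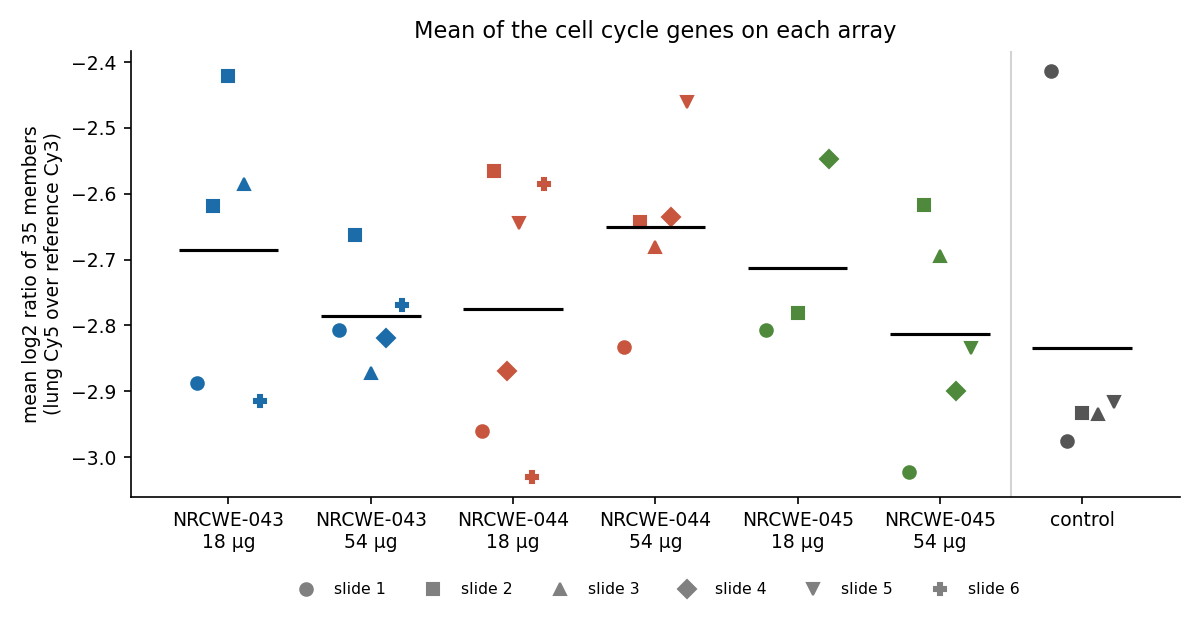
Mean log2 ratio (lung over reference) of the 35 tested members on each array, by material and dose, with the controls on the right. Points are arrays, their shapes mark the slide, and bars are group means; control replicate 1 at -2.41 is the highest point, and the other 4 controls lie between -2.98 and -2.92.

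By group, the mean of the members was -2.69 ± 0.21 (SD, n = 5) at 18 µg and -2.79 ± 0.08 (n = 5) at 54 µg of NRCWE-043. It was -2.78 ± 0.20 (n = 6) and -2.65 ± 0.13 (n = 5) at the same doses of NRCWE-044. For NRCWE-045 it was -2.71 ± 0.14 (n = 3) at 18 µg and -2.81 ± 0.16 (n = 5) at 54 µg, and in the controls it was -2.83 ± 0.24 (n = 5), or -2.94 ± 0.025 (n = 4) without replicate 1. All 6 treated means were above the control mean, by 0.02 to 0.18, and the spread of arrays within a group, pooled over groups, was 0.18. Of the 29 treated arrays, 26 lay above control replicates 2 to 5 and 0 lay above control replicate 1. In the lung channel alone, 20 of 29 lay above control replicates 2 to 5 and 0 above replicate 1. Per member, a median of 16 of 29 treated arrays lay above all of control replicates 2 to 5 (range 0 to 24), against a median of 5 of 29 over all tested probes. Below all 4 of those controls lay a median of 2 treated arrays per member, against 5 over all probes. Control replicate 1 was set aside in these counts because the same members were high on it. That lowers the bar for the members more than for probes in general, so the counts against replicates 2 to 5 are descriptions only.

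Each slide was scanned within 1 day, and 4 of the 6 held controls. Of the 20 treated arrays on those 4 slides, 14 had a higher mean than the controls of their own slide. All 6 that did not were on slide 1, beside control replicate 1. Without that array 19 of 20 were higher. The exception was the 54 µg array of NRCWE-045 on slide 1, by -0.05. The count of 19 leaves out an array singled out by the values of these members, so it is a description only. The other 9 treated arrays sat on 2 slides with no control. The share of the variance of the mean that lay between slides (R²) was 0.164, and between groups it was 0.142. Such shares are above 0 even without any effect of slide or group. For 29 of the 35 members the share of variance between slides exceeded that between groups, with medians of 0.32 and 0.14. The same count over all probes is not given here, so it is not read as a trait of these genes. The share between slides was highest for 2 dim members, Cdc45 (0.913) and Kif2c (0.896). For Kif2c the 8 arrays of slide 1 ran from -3.81 to -3.36 and the 8 of slide 2 from -2.44 to -1.77, with groups mixed on both, and for Cdc45 they ran from -2.26 to -1.88 and from -1.17 to -0.82.

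No member passed the test against the controls. Fits with limma to all 29316 probes, with Benjamini-Hochberg adjustment over all of them, called 0 of 35 members in each of the 6 comparisons of a material and dose with the controls, and called 0% of all probes there. The smallest adjusted p of a member was 0.644. The moderated F test over all 7 groups called 0 of 35 members (smallest adjusted p 0.969, and 0 at an unadjusted p under 0.05, where 7.02% of all probes were), against 0.0443% of all probes. Over all 18 comparisons, 8 of the 630 pairs of member and comparison had an unadjusted p under 0.05. Against the controls, 1 member did at 18 µg of NRCWE-043 (4.35% of all probes did), 0 at 54 µg (5.63%), 1 at 18 µg of NRCWE-044 (3.13%), 0 at 54 µg (5.84%), 0 at 18 µg of NRCWE-045 (7.92%) and 0 at 54 µg (3.92%). By direction alone, members lay above the controls more often than probes in general did. At 54 µg of NRCWE-045 their share was near that of all probes. At 18 µg of NRCWE-043, 33 of 35 members lay above 0 (46.4% of all probes did), with a median log2 change of 0.10. At 54 µg of NRCWE-043, 23 of 35 did (46.8% of all probes), with a median of 0.03. At 18 µg of NRCWE-044, 24 of 35 did (50.4% of all probes; median 0.06), and at 54 µg all 35 did (50.1% of all probes; median 0.17). At 18 µg of NRCWE-045, 29 of 35 did (50.7% of all probes; median 0.11), and at 54 µg 20 of 35 (50.5% of all probes; median 0.02). The 6 comparisons share the same 5 controls, the members move together, and they were listed with earlier results of these data known. These counts are therefore a description with no test.

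Leaving out control replicate 1 raised all 6 medians. They were 0.24 for NRCWE-043 at 18 µg, 0.13 for it at 54 µg, 0.14 and 0.24 for NRCWE-044, and 0.23 and 0.10 for NRCWE-045 in the same order of dose. Still 0 members were called, with a smallest adjusted p of 0.379 in limma, for Mki67 at 54 µg of NRCWE-044. Control replicate 1 was singled out by the values of these same members. P-values, medians and counts without it, here and elsewhere, are therefore descriptions and not independent tests. At an unadjusted p under 0.05 there were then 7 and 2 members for NRCWE-043 at 18 and 54 µg (3.16 and 6.03% of all probes), 2 and 10 for NRCWE-044 (3.00 and 6.10%) and 6 and 1 for NRCWE-045 (8.11 and 3.96%). With the lung channel alone, quantile normalized, in place of the ratio, and all 5 controls, the medians were 0.01, -0.01, 0.03, 0.11, -0.02 and -0.03, so that the direction turned for NRCWE-043 at 54 µg and for both doses of NRCWE-045. With every treated array required to lie above all 5 controls, 0 members passed in each of the 6 groups, where 0.229 and 0.331% of all probes did for NRCWE-043 at 18 and 54 µg, 0.157 and 0.676% for NRCWE-044 and 3.18 and 0.417% for NRCWE-045. Against control replicates 2 to 5 only, 0 members passed for NRCWE-043 at 18 µg (0.444% of all probes), 2 at 54 µg (0.976%), 1 for NRCWE-044 at 18 µg (0.406%), 6 at 54 µg (1.51%), 4 for NRCWE-045 at 18 µg (4.87%) and 1 at 54 µg (1.18%). With the slide as a fixed block and all 5 controls, 0 members were called. At an unadjusted p under 0.05 in limma there were 2 and 1 members for NRCWE-043 at 18 and 54 µg (6.62 and 11.3% of all probes). There were 1 and 4 for NRCWE-044 (4.53 and 10.5%) and 0 and 0 for NRCWE-045 (10.3 and 6.9%). With the slide as a fixed block and without control replicate 1, a setting chosen after seeing the data, 0 members were called (smallest adjusted p 0.119). At an unadjusted p under 0.05 there were in that setting 16 and 10 members for NRCWE-043 at 18 and 54 µg (6.68 and 12.1% of all probes), 9 and 19 for NRCWE-044 (5.5 and 10.9%) and 12 and 2 for NRCWE-045 (10.4 and 7.21%). Pooling the 3 materials, 32 of 35 members lay above 0 at 18 µg (50.3% of all probes; median 0.10) and 28 of 35 at 54 µg (49.3% of all probes; median 0.08), with 0 called by limma, 0% of all probes called and 0 members at an unadjusted p under 0.05 (3.91 and 5.61% of all probes). Without control replicate 1 all 35 members lay above 0 at both doses (50.7 and 49.8% of all probes did), with medians of 0.21 and 0.16 and 0 called. Some of the 20 marker lists of other cells also lay mostly above or mostly below the controls, of which the T cell, B cell and endothelial lists are examples. In the pooled 18 and 54 µg comparisons 9 and 10 of 10 T cell genes lay above 0 (medians 0.16 and 0.21), 8 and 9 of 9 B cell genes did (0.30 and 0.34), and 1 and 0 of 9 endothelial genes did (-0.30 and -0.34). Without control replicate 1 the medians were 0.23 and 0.29 for T cells (10 of 10 above 0 at both doses), 0.26 and 0.39 for B cells (9 of 9) and -0.31 and -0.32 for endothelial cells (1 and 0 of 9). In that fit 4 and 5 of 9 alveolar macrophage genes lay above 0 at 18 and 54 µg (medians -0.01 and 0.04). Of monocyte and interstitial macrophage genes 7 and 9 of 9 did (0.07 and 0.22), and of natural killer genes 5 and 6 of 6 (0.06 and 0.19). Of thymocyte genes 3 and 4 of 6 did (0.07 and 0.10). Of neutrophil genes 8 and 6 of 8 did (0.16 and 0.15), and of germinal centre and plasma cell genes 5 and 6 of 7 (0.12 and 0.07). The part of these cells in the level of the members was not tested.

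**Figure D2:**
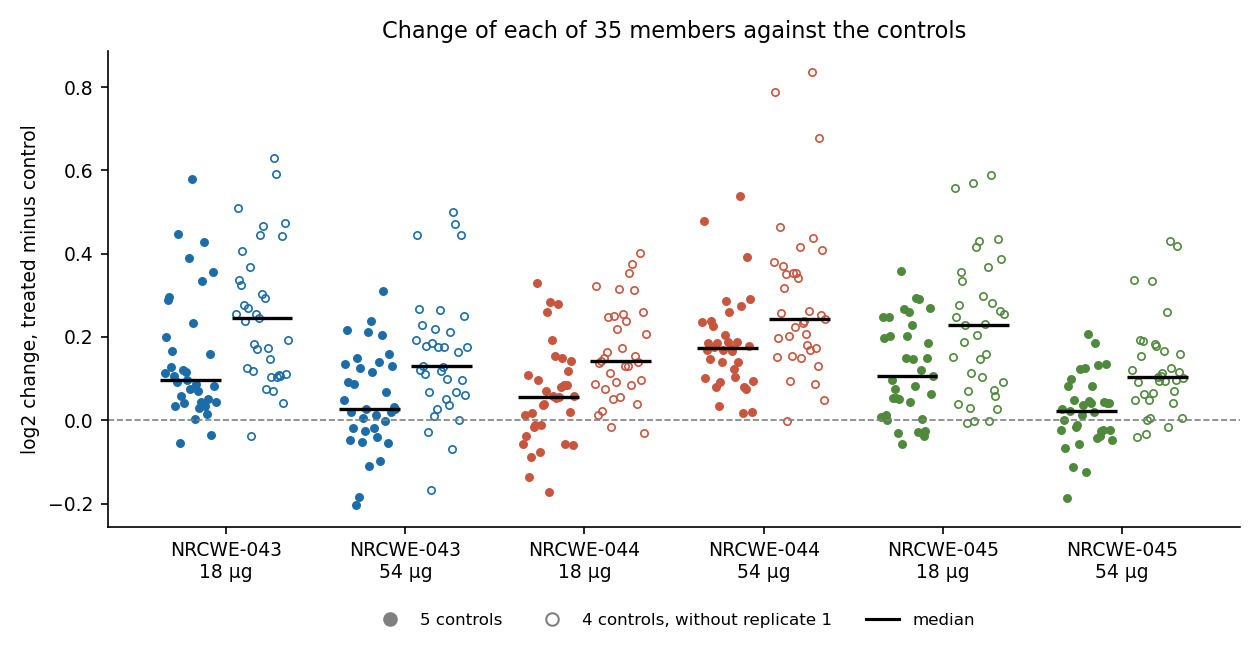
Log2 change of each of the 35 tested members against the controls, by material and dose. Filled points use all 5 controls, open points leave out control replicate 1, and bars are medians; at 54 µg of NRCWE-044 the median was 0.17 with 5 controls and 0.24 with 4.

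Mki67, whose protein Ki-67 coats mitotic chromosomes and is the usual stain for cycling cells, had ratios of -4.05, -3.43, -3.35, -3.17 and -2.88 at 54 µg of NRCWE-044, against -2.73, -4.23, -4.53, -4.08 and -3.99 in control replicates 1 to 5. At 54 µg of NRCWE-044, 4 of 5 arrays thus lay above control replicates 2 to 5, while all 5 lay below control replicate 1. The log2 change was 0.54 ± 0.27 (SE, n = 5 and 5; limma adjusted p = 0.856), and 0.84 ± 0.24 without control replicate 1. At 18 µg of the same material Mki67 read -3.98, -3.51, -3.94, -3.52, -4.63 and -3.43. At both doses of NRCWE-043 the 10 arrays lay between -4.03 and -3.18. With NRCWE-045 they read -3.70, -4.11 and -3.05 at 18 µg and -4.36, -3.59, -3.38, -3.81 and -3.76 at 54 µg. Over all 54 µg arrays the change was 0.29 ± 0.22 (n = 15 and 5), and 0.59 ± 0.20 without control replicate 1 (unadjusted p = 0.00594, adjusted p = 0.557 in limma). A second Mki67 probe followed the first over the 34 arrays (r = 0.97) and read -2.82 on control replicate 1, against a mean of -4.27 on the other 4.

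Top2a, the topoisomerase that untangles DNA before chromosomes part, had ratios of -4.39, -3.43, -3.33, -3.54 and -4.05 at 18 µg of NRCWE-043, against -3.63, -4.33, -4.04, -4.22 and -4.32 in controls 1 to 5. Of the treated arrays 3 lay above every control and 1 below every control. The log2 change was 0.36 ± 0.19 (limma adjusted p = 0.980). Without control replicate 1 it was 0.47 ± 0.19, and in the lung channel alone, with all 5 controls, it was -0.01. Over the 29 treated arrays Top2a ran from -4.55 to -3.33, with a median of -3.92. Its changes in the remaining 5 groups were 0.04 to 0.29, and 0.16 to 0.41 without control replicate 1.

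**Figure D3:**
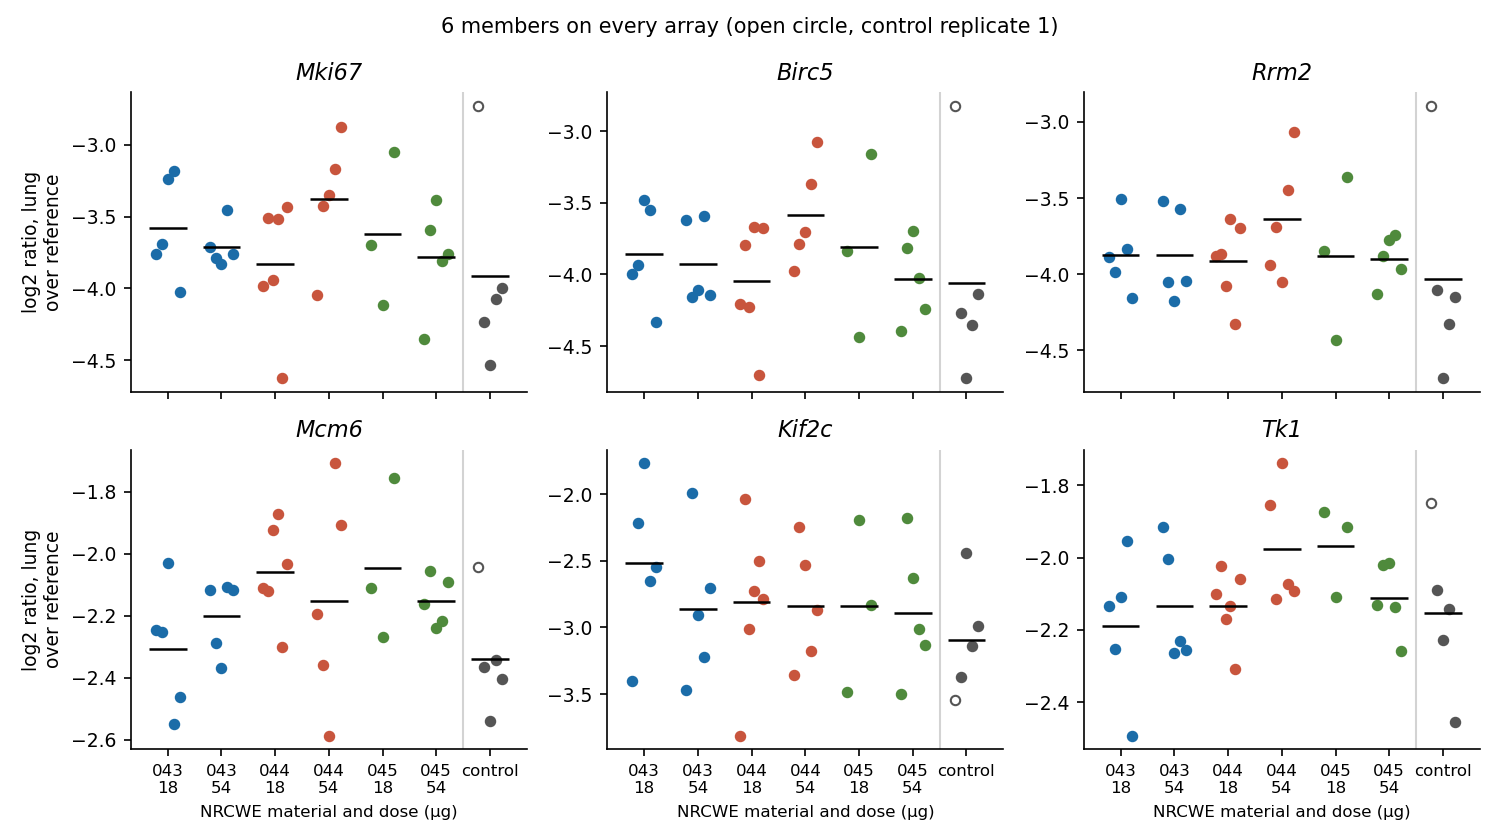
Log2 ratio (lung over reference) of 6 members on every array, by material (labelled with the last digits of its code) and dose in µg, with the controls on the right of each panel. Filled points are arrays, the open circle is control replicate 1, and bars are group means; for Mki67, Birc5 and Rrm2 control replicate 1 lies above every other array, and for Kif2c it is the lowest control.

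Among the genes of origin licensing and the replication fork, 9 were tested, and 6 of 9 lay above 0 in the pooled 54 µg comparison (median 0.06) and 9 of 9 in the pooled 18 µg one (median 0.10). Mcm6, a subunit of the replicative helicase and the brightest of this role, read -2.11, -2.12, -1.93, -1.87, -2.30 and -2.03 at 18 µg of NRCWE-044, against -2.04, -2.37, -2.54, -2.34 and -2.40 in controls 1 to 5. Of these 6 arrays 3 lay above every control. Its log2 change was 0.28 ± 0.12 (unadjusted p = 0.0282), and it did not pass after adjustment; without control replicate 1 it was 0.35 ± 0.13. Pooled, Mcm6 had a log2 change of 0.20 ± 0.11 at 18 µg and of 0.17 ± 0.10 at 54 µg, and of 0.27 and 0.24 without that control. Mcm6 ran from -2.59 to -1.71 over the 29 treated arrays (median -2.12), and in the other 5 treated groups its changes were 0.03 to 0.29, or 0.10 to 0.37 with replicate 1 left out. Mcm7, another helicase subunit, had the smallest unadjusted p of any member, in a comparison between materials given further on. Mcm2, Mcm3, Mcm4 and Mcm5, the remaining helicase subunits on the list, had log2 changes of 0.03 to 0.11 in the pooled 54 µg comparison and of 0.07 to 0.16 at 18 µg, and at 54 µg of 0.10 to 0.17 without control replicate 1. Pcna, the clamp that holds the polymerases on DNA, had a log2 change of -0.004 ± 0.09 at 54 µg and of 0.04 ± 0.10 at 18 µg. Cdc6, the loader of the helicase, and Cdc45, which activates it, were dim, with changes of -0.005 ± 0.15 and 0.09 ± 0.21 at 54 µg. At 54 µg and without control replicate 1 the direction turned for Pcna (0.06 ± 0.10) and Cdc6 (0.01 ± 0.16), and Cdc45 was at 0.01 ± 0.23.

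Of the 4 genes of nucleotide supply, all 4 lay above 0 in both pooled comparisons, with medians of 0.05 each. Rrm2, the regulated subunit of ribonucleotide reductase, read -3.94, -3.69, -4.05, -3.45 and -3.07 at 54 µg of NRCWE-044, against -2.89, -4.10, -4.68, -4.33 and -4.15 in controls 1 to 5. All 5 treated arrays lay above control replicates 2 to 5 and all lay below control replicate 1. The change was 0.39 ± 0.23 (limma adjusted p = 0.925), and 0.68 ± 0.19 without control replicate 1. In the pooled 54 µg comparison it was 0.23 ± 0.19, and 0.51 ± 0.16 without control replicate 1 (unadjusted p = 0.00374, adjusted p = 0.517 in limma). Rrm2 ran from -4.43 to -3.07 over the 29 treated arrays (median -3.88), and in the other 5 treated groups its changes were 0.12 to 0.16, or 0.40 to 0.44 with replicate 1 left out. Tk1, the thymidine kinase of S phase, read -1.86, -2.12, -1.74, -2.07 and -2.09 at 54 µg of NRCWE-044, against -1.85, -2.09, -2.23, -2.14 and -2.45 in the controls, and these groups overlapped. The change was 0.18, and 0.25 ± 0.10 without control replicate 1. Tk1 ran from -2.49 to -1.74 over the 29 treated arrays (median -2.11), and in the other 5 treated groups its changes were -0.04 to 0.19, or 0.04 to 0.26 with replicate 1 left out. Rrm1, the large reductase subunit, and Tyms, which makes thymidylate, had log2 changes of 0.02 and 0.01 in the pooled 54 µg comparison, or 0.08 and 0.04 without control replicate 1.

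Of the cyclins and Cdk1, 5 were tested, and 4 of 5 lay above 0 at 54 µg (median 0.08). Ccnb2, a cyclin of mitosis, read -3.00, -3.01, -2.93, -2.85 and -2.58 at 54 µg of NRCWE-044, against -2.59, -3.26, -3.37, -3.22 and -3.13 in the controls. Here too the treated arrays lay above control replicates 2 to 5, and 1 of 5 lay above replicate 1. The change was 0.24 ± 0.13 (limma adjusted p = 0.918), and 0.37 ± 0.12 without control replicate 1. Over the 29 treated arrays Ccnb2 ran from -3.51 to -2.58, with a median of -3.01. Its changes in the remaining 5 groups were -0.02 to 0.20, and 0.11 to 0.33 without control replicate 1. Ccne1, the cyclin that starts S phase, had the largest pooled 54 µg change of this role, 0.14 ± 0.09, or 0.23 ± 0.10 without control replicate 1. It read -1.75, -2.02, -1.73, -1.79 and -1.56 at 54 µg of NRCWE-044, against -1.63, -2.06, -2.16, -2.01 and -2.11 in the controls, a change of 0.23 that was 0.32 ± 0.11 without replicate 1. Ccne1 ran from -2.35 to -1.56 over the 29 treated arrays (median -1.92), and in the other 5 treated groups its changes were -0.02 to 0.10, or 0.08 to 0.19 with replicate 1 left out. Ccna2 and Ccnb1, cyclins of S phase and mitosis, had log2 changes of -0.02 ± 0.19 and 0.08 ± 0.14 in the pooled 54 µg comparison. Leaving out control replicate 1 turned the direction of Ccna2, to 0.26 ± 0.17, and Ccnb1 was at 0.19. Cdk1, their kinase, was dim and had a log2 change of 0.05 ± 0.08, or 0.11 without that control.

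Birc5, or survivin, the chromosomal passenger that holds Aurora B at centromeres, stood for the mitotic kinases and checkpoint genes, of which 5 of 5 tested lay above 0 at 54 µg (median 0.09). It read -3.98, -3.79, -3.70, -3.37 and -3.07 at 54 µg of NRCWE-044, against -2.82, -4.27, -4.72, -4.35 and -4.14 in controls 1 to 5. All 5 treated arrays lay above control replicates 2 to 5 and below replicate 1. The change was 0.48 ± 0.27 (limma adjusted p = 0.918), and 0.79 ± 0.23 without control replicate 1 (limma adjusted p = 0.399). In the pooled 54 µg comparison it was 0.21, and 0.52 ± 0.20 without that control. Over the 29 treated arrays Birc5 ran from -4.71 to -3.07, with a median of -3.84. Its changes in the remaining 5 groups were 0.01 to 0.25, and 0.32 to 0.56 without control replicate 1. Aurka, the kinase of spindle poles, Plk1, the Polo kinase, and the spindle checkpoint genes Bub1 and Bub1b had log2 changes of 0.04 to 0.11 in the pooled 54 µg comparison, and of 0.09 to 0.23 without control replicate 1. A second Birc5 probe gave 0.11 in place of 0.48 at 54 µg of NRCWE-044.

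Cdc20, which turns on the anaphase-promoting complex, read -3.77, -3.58, -3.57, -3.66 and -2.78 at 54 µg of NRCWE-044, against -2.94, -3.74, -4.10, -3.96 and -3.49 in the controls, and only replicate 5 lay above every control. The change there was 0.18, and 0.35 ± 0.19 without control replicate 1. Its pooled 54 µg change was -0.05 ± 0.16, and the direction turned, to 0.13 ± 0.16, without that control. Cdc20 ran from -4.04 to -2.78 over the 29 treated arrays (median -3.65), and in the other 5 treated groups its changes were -0.20 to 0.09, or -0.03 to 0.27 with replicate 1 left out. Ube2c, the ubiquitin-conjugating enzyme of the same complex, had a pooled 54 µg log2 change of 0.02 ± 0.13, or 0.17 ± 0.13 without control replicate 1.

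Of the kinesins and spindle genes, 3 of 4 lay above 0 at 54 µg (median 0.20) and 4 of 4 at 18 µg (median 0.25). Kif2c, which takes apart microtubule ends at centromeres, had the largest change of any member in the pooled 18 µg comparison, 0.37 ± 0.27, and one of 0.24 ± 0.26 at 54 µg, and it is the dim gene whose values followed the slide. It read -3.40, -2.22, -1.77, -2.65 and -2.55 at 18 µg of NRCWE-043, against -3.54, -3.37, -2.44, -3.14 and -2.99 in the controls, a change of 0.58, or 0.47 without replicate 1. Without that control its pooled changes were 0.26 ± 0.29 at 18 µg and 0.12 ± 0.28 at 54 µg. Kif2c ran from -3.81 to -1.77 over the 29 treated arrays (median -2.78), and in the other 5 treated groups its changes were 0.21 to 0.28, or 0.09 to 0.17 with replicate 1 left out. Kif20a, a kinesin of the last step of division, read -3.85, -3.80, -3.81, -3.40 and -3.09 at 54 µg of NRCWE-044, against -2.86, -4.18, -3.92, -4.16 and -3.77 in the controls. Its change was 0.19, and 0.42 ± 0.22 without replicate 1, and the pooled 54 µg change turned, being -0.02 with all controls and 0.21 ± 0.18 without that one. Kif20a ran from -4.62 to -3.09 over the 29 treated arrays (median -3.80), and in the other 5 treated groups its changes were -0.17 to 0.20, or 0.06 to 0.43 with replicate 1 left out. Kif11, the kinesin that drives the spindle poles apart, read -2.89, -2.49, -2.33, -2.44 and -2.73 at 18 µg of NRCWE-043, against -2.75, -3.31, -2.84, -2.97 and -2.96 in the controls, and 4 of 5 treated arrays lay above every control. Its change there was 0.39 ± 0.17 (unadjusted p = 0.0316, limma adjusted p = 0.980), and 0.09 in the lung channel alone. It was 0.44 ± 0.18 without control replicate 1. The share of Kif11 variance between slides was 0.637. Its arrays ran from -3.32 to -2.75 on slide 1 and from -2.84 to -2.32 on slide 2. Over the 29 treated arrays Kif11 ran from -3.32 to -2.32, with a median of -2.71. Its changes in the remaining 5 groups were 0.13 to 0.29, and 0.18 to 0.34 without control replicate 1. Nusap1, which bundles spindle microtubules, had a log2 change of 0.18 ± 0.19 in the pooled 54 µg comparison, or 0.34 ± 0.20 without control replicate 1.

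At the centromere, Cenpe, the kinetochore motor, read -4.25, -3.94, -4.75, -3.51 and -3.43 at 54 µg of NRCWE-044, against -3.26, -4.62, -4.19, -4.40 and -4.12 in the controls, with wide overlap. The change was 0.14, and 0.35 ± 0.26 without replicate 1. Cenpe ran from -4.90 to -3.18 over the 29 treated arrays (median -3.99), and in the other 5 treated groups its changes were 0.01 to 0.36, or 0.22 to 0.57 with replicate 1 left out. Cenpa, the histone that marks the centromere, had a log2 change of -0.01 ± 0.09 in the pooled 54 µg comparison, which turned to 0.06 ± 0.10 without control replicate 1. Of the transcription factors, E2f1, an activator of S phase genes, read -2.06, -1.63, -0.96, -1.62 and -1.56 at 54 µg of NRCWE-044, against -1.52, -1.76, -2.04, -1.69 and -1.66 in the controls, a change of 0.17, or 0.22 ± 0.15 without replicate 1. E2f1 ran from -2.08 to -0.96 over the 29 treated arrays (median -1.73), and its changes in the other 5 treated groups were -0.06 to 0.12, or -0.002 to 0.17 with replicate 1 left out. Foxm1, an activator of mitotic genes, read -2.70, -2.96, -2.78, -2.75 and -2.88 there, against -2.43, -2.96, -3.22, -3.04 and -3.45 in the controls, and all treated arrays lay below control replicate 1. Its change was 0.21 ± 0.13 (limma adjusted p = 0.936), and 0.35 ± 0.11 without control replicate 1. Foxm1 ran from -3.28 to -2.64 over the 29 treated arrays (median -2.92), and in the other 5 treated groups its changes were 0.03 to 0.27, or 0.18 to 0.42 with replicate 1 left out.

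The member genes differed in how far control replicate 1 stood from the other 4 controls. The difference from their mean was largest for Birc5 (1.55 on the log2 scale), Mki67 (1.48), Rrm2 (1.42), Ccna2 (1.39), Kif20a (1.15) and Cenpe (1.06). In the licensing and fork genes it was smaller, with a median of 0.34 over 9 members and a highest value of 0.42 for Mcm4. The 6 members in which replicate 1 was not above the other 4 were Mcm7 and 5 that were not above background on every array, Bub1, Tyms, Cdc6, Cdc45 and Kif2c, and in Kif2c and Cdc45 it lay below all 4, by -0.56 and -0.41 from their mean. For Birc5, Mki67, Rrm2, Ccna2, Kif20a, Ube2c and Foxm1, 0 of 29 treated arrays exceeded control replicate 1. Dimmer second probes did not always follow the probe used. For Ccnb1 the probe used read -3.77 on replicate 1, against a mean of -4.32 on the other 4. Another Ccnb1 probe, above background on 25 arrays, read -3.30, against -3.05, and correlated with the first at 0.43. A second Foxm1 probe, above background on 13 arrays, read -2.07 on replicate 1, against -1.62, and correlated with the first at -0.19. The second Ube2c probe, above background on 34 arrays, read -3.02 there, against -3.87. For Kif2c a second probe, above background on 4 arrays, correlated with the probe used at 0.92. Among 20 lists of cell type markers, replicate 1 lay above the other 4 controls in 6. They were neutrophils (0.50 from the control mean, against -0.25 to -0.01), alveolar macrophages (0.31, against -0.42 to 0.28), T cells (0.26, against -0.19 to 0.13), natural killer cells (0.26, against -0.16 to 0.17), monocytes and interstitial macrophages (0.23, against -0.28 to 0.13) and megakaryocytes (0.14, against -0.11 to 0.04). On treated arrays these 6 list means reached 0.45 to 1.40, and in all 6 replicate 1 was exceeded by at least 3 arrays. The part of these cells in the level of the members was not tested.

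**Figure D4:**
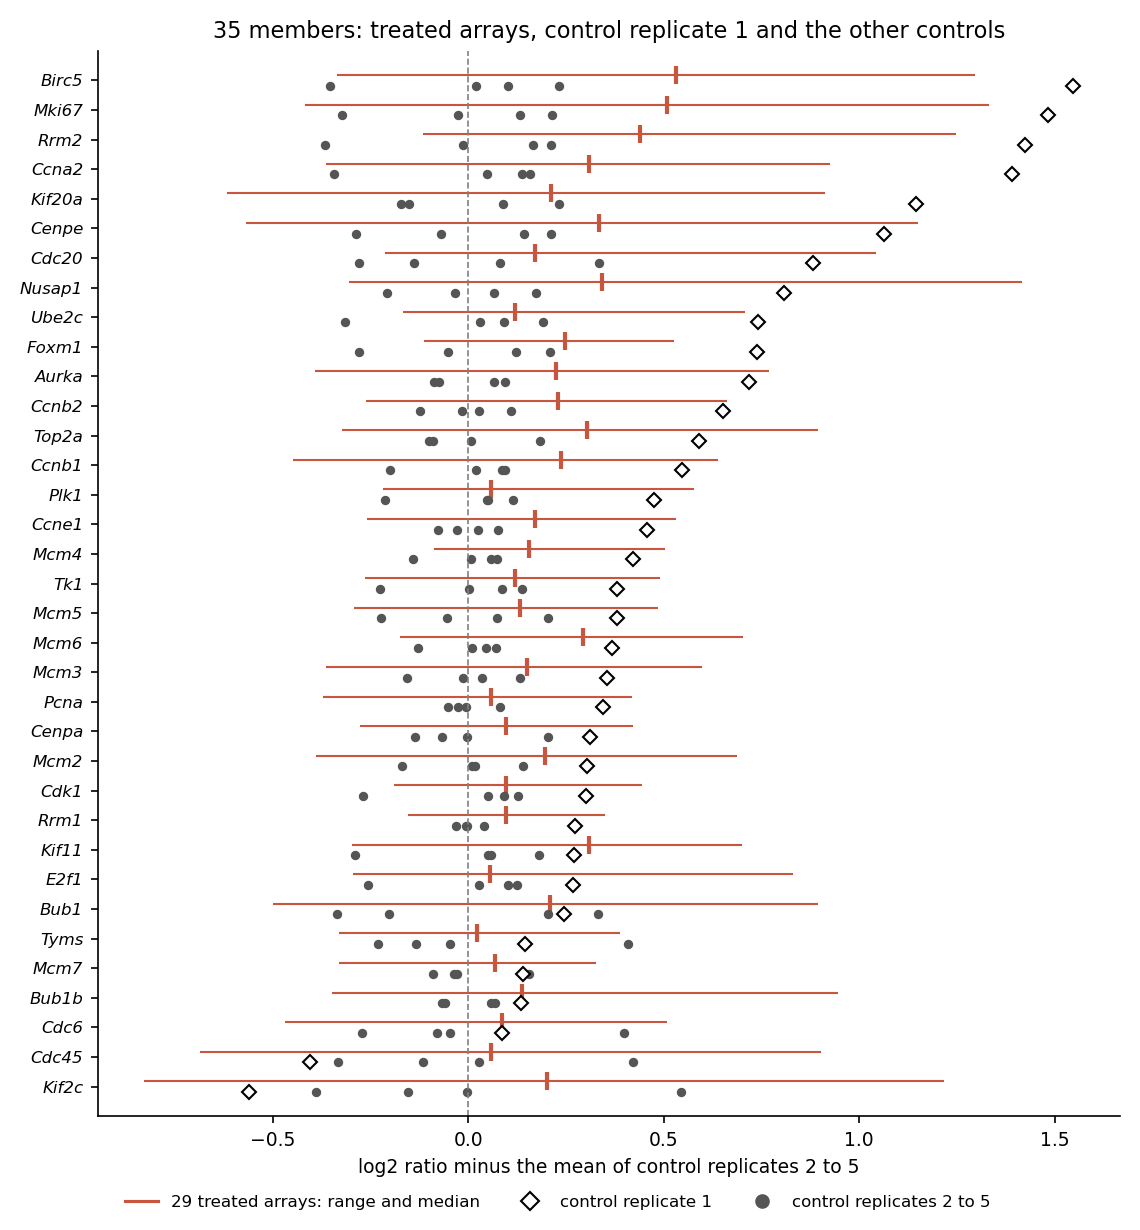
Each of the 35 tested members as log2 ratio minus the mean of control replicates 2 to 5, sorted by control replicate 1. Lines with a tick give the range and median of the 29 treated arrays, the open diamond is control replicate 1, and grey points are the other 4 controls; the diamond lies 1.55 above 0 for Birc5 and 0.56 below 0 for Kif2c.

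Dose made no difference that passed the test. In 54 against 18 µg, 0 of 35 members were called by limma for each material, and 0% of all probes were. The members lay above 0 in 6 of 35 for NRCWE-043 (50.8% of all probes; median -0.11), in 28 of 35 for NRCWE-044 (49.7% of all probes; median 0.11) and in 6 of 35 for NRCWE-045 (48.8% of all probes; median -0.09). Pooled over materials, 9 of 35 lay above 0 (48.8% of all probes; median -0.04) with 0 called, and 0% of all probes called. For NRCWE-044, Ccne1 was -1.77 at 54 µg and -2.01 at 18 µg (difference 0.24 ± 0.11, unadjusted p = 0.0370 in limma), and 4 of 5 arrays at 54 µg lay above every array at 18 µg. A second Ccne1 probe, above background on 7 arrays, gave -0.08 in place of 0.24 and correlated with the first at -0.41. Aurka was -3.62 at 54 µg and -3.92 at 18 µg (difference 0.29 ± 0.14, unadjusted p = 0.0449). Neither passed after adjustment (0.942 and 0.944 in limma). Members with an unadjusted p under 0.05 between doses numbered 0 for NRCWE-043 (3.13% of all probes), 2 for NRCWE-044 (5.24%), 0 for NRCWE-045 (2.36%) and 0 pooled (3.71%).

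The materials were compared in 6 pairs, 3 at each dose, and p-values were adjusted over all 29316 probes in each. At 18 µg limma called 0 of 35 members in each pair: NRCWE-043 against NRCWE-044 (0.0102% of all probes called), NRCWE-043 against NRCWE-045 (0.430%) and NRCWE-044 against NRCWE-045 (0%). At 54 µg it also called 0 of 35, for NRCWE-043 against NRCWE-044 (0% of all probes), NRCWE-043 against NRCWE-045 (0.00341%) and NRCWE-044 against NRCWE-045 (0%). The smallest adjusted p of a member over the 6 pairs was 0.510. At an unadjusted p under 0.05 there was 1 member for NRCWE-043 against NRCWE-044 at 18 µg (5.56% of all probes), 0 for NRCWE-043 against NRCWE-045 (10.7%) and 0 for NRCWE-044 against NRCWE-045 (6.16%). At 54 µg there were 2 (4.79%), 0 (5.10%) and 1 (3.60%) for the same pairs. The largest shift was at 54 µg, where NRCWE-044 lay above NRCWE-045 in all 35 members (52.4% of all probes; median 0.14) and NRCWE-043 lay above NRCWE-044 in only 5 of 35 (46.1% of all probes; median -0.14). These values do not use the controls. At 18 µg NRCWE-043 lay above NRCWE-044 in 26 of 35 members (47.8% of all probes; median 0.09).

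Mcm7 was the member with the smallest unadjusted p between materials. At 54 µg it read -2.33, -2.56, -2.59, -2.57 and -2.48 with NRCWE-043, against -2.39, -2.34, -2.11, -2.37 and -2.14 with NRCWE-044. Of the NRCWE-043 arrays 4 of 5 lay below every NRCWE-044 array. Over the 29 treated arrays Mcm7 ran from -2.77 to -2.11, with a median of -2.37. The difference was -0.24 ± 0.09 (95% interval -0.41 to -0.06, unadjusted p = 0.00955, limma adjusted p = 0.882). Against NRCWE-045 at the same dose, Mcm7 in NRCWE-044 arrays was higher by 0.18 ± 0.09 (interval 0.01 to 0.36), and the remaining pairs with an unadjusted p under 0.05 were Cdc6 for NRCWE-043 minus NRCWE-044 at 54 µg (-0.37 ± 0.18) and Mcm6 for the same pair at 18 µg (-0.25 ± 0.12). For Mki67 the difference between NRCWE-044 and NRCWE-045 at 54 µg was 0.41 ± 0.27, with a 95% interval of -0.14 to 0.95 that holds 0. For NRCWE-043 minus NRCWE-044 at 54 µg it was -0.33 ± 0.27, with an interval of -0.88 to 0.21.

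The members varied together from array to array. Over the 34 arrays the median correlation of 2 members was 0.40, with 512 of 595 pairs above 0, and it was 0.37 without control replicate 1. Over the 29 members above background on all arrays it was 0.46. The correlation of a member with the mean of the other 34 was highest for Nusap1 (0.89), Ccnb1 (0.88), Mki67 (0.86) and Top2a (0.86). It was lowest for Cdc45 (0.21), Tyms (0.22), Plk1 (0.24) and Cdk1 (0.25), of which all but Plk1 were dim. Among the licensing genes the highest was 0.73 for Mcm4, while Mcm6, Pcna and Mcm7, which are bright as well, gave 0.38, 0.35 and 0.45. These arrays share slides and 1 reference RNA, and the values are descriptions with no test. No such median over all tested probes is set beside them.

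**Figure D5:**
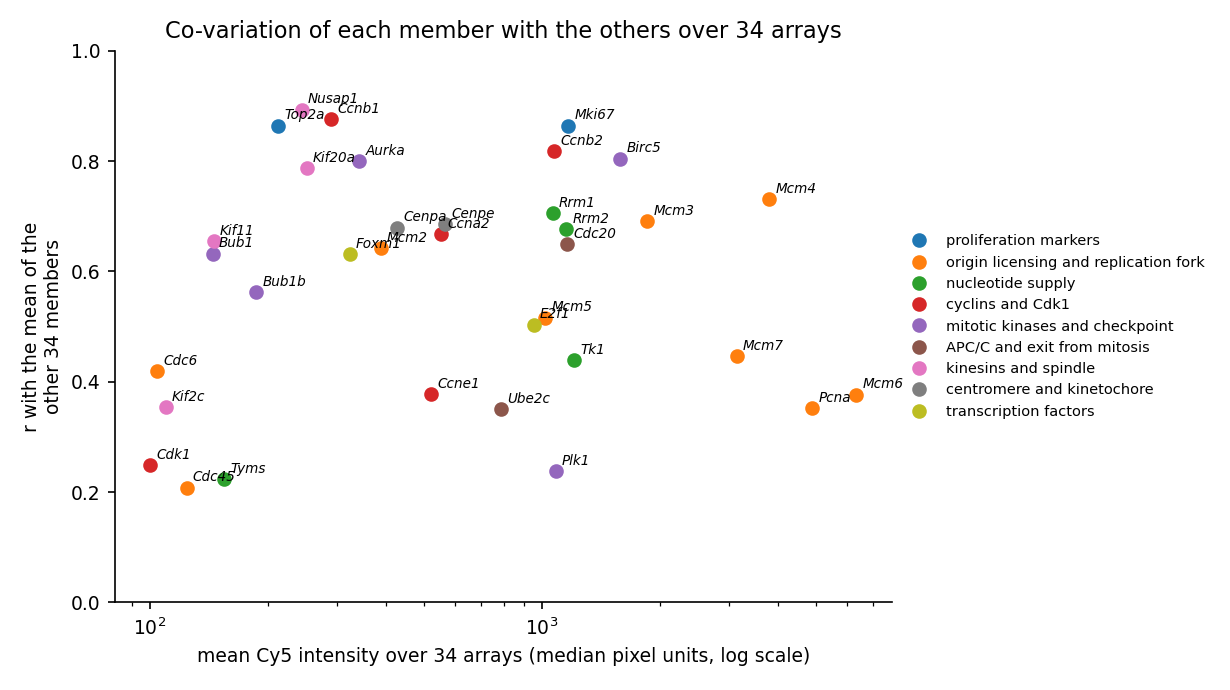
Correlation of each tested member with the mean of the other 34 over 34 arrays (vertical axis), against its mean Cy5 intensity (horizontal log axis), coloured by role. Nusap1, Ccnb1, Mki67 and Top2a lie between 0.86 and 0.89, and the dim genes Cdk1, Cdc45 and Tyms lie between 0.21 and 0.25.

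Lists of other genes of replication and mitosis were set beside the members. Of 49 other S phase genes 48 were tested and of 62 other G2 and M phase genes 55 were; their list means correlated with that of the members at 0.87 and 0.90 over 34 arrays, while 24 tested cyclin D, Cdk inhibitor and pocket protein genes, which govern entry into the cycle, did so at 0.36. In both pooled comparisons with the controls, limma called 0 genes of each list in either direction. In the pooled 54 µg comparison, 40 of 48 S phase genes (median 0.06), 47 of 55 G2 and M phase genes (median 0.09) and 11 of 24 cyclin D, inhibitor and pocket protein genes (median -0.02) lay above 0. Without control replicate 1 the medians were 0.11, 0.18 and -0.04. The list means on control replicate 1 were 0.18 and 0.31 above the control mean for the S and G2 to M lists, the highest of the controls but the 9th highest of 34 arrays in each. The smallest unadjusted p in the pooled 54 µg comparison belonged to Gins3 (-0.17 ± 0.07), Mcm10 (0.21 ± 0.09) and Rfc2 (0.16 ± 0.07) among S phase genes, a helicase partner, a fork protein and a clamp loader subunit. They belonged to Nek2 (0.41 ± 0.18), Racgap1 (0.26 ± 0.13) and Cdca8 (0.17 ± 0.12) among G2 and M phase genes, a centrosome kinase, a cytokinesis regulator and a chromosomal passenger. In the third list they belonged to Tfdp2 (-0.26 ± 0.08), the partner of E2F factors, Ccnd1 (-0.21 ± 0.08), cyclin D1, and Rb1 (0.10 ± 0.07), the retinoblastoma protein. None of these 9 passed after adjustment, the smallest adjusted p being 0.611.

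Among 16865 named genes on none of the lists, the 10 whose ratios followed the mean of the members most closely over the 34 arrays were Fignl1 (r = 0.85), Cdkn3 (0.82), Ezh2 (0.81), Tacc3 (0.81), Rad51ap1 (0.80), Pask (0.80), Depdc1b (0.79), Ckap2 (0.77), Nsl1 (0.76) and Lockd (0.74). Without control replicate 1 these correlations were 0.70 to 0.85. Fignl1 ran from -3.79 to -2.47 on the treated arrays, against -2.80 on control replicate 1 and -3.74 to -3.35 on the other controls. Across the 20 marker lists, the correlation with the mean of the members lay between -0.40 for ciliated cells and 0.31 for germinal centre and plasma cells, below those of both cell cycle lists. The neutrophil and alveolar macrophage lists gave -0.19 and -0.04, and the T cell and B cell lists 0.18 and 0.10.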

How the data were processed

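Lung RNA (Cy5) and a common reference RNA (Cy3) were measured on 34 Agilent 2-colour arrays. The deposited spot intensities, median pixel brightness per channel, and flags came from Agilent Feature Extraction 11.0.1.1, per the file headers, with 62976 spots and 55681 probes per array. The authors' deposited series table holds log2 ratios centred near 0, whose making no header or label describes; it served as an alternative. Dyes were never swapped, so a dye effect on a probe is part of its level but not of a difference between groups.

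Intensities were background corrected (normexp, offset 50) and normalized within arrays (loess), with weight 0 for control and irregular spots. Replicate spots were averaged, and the probe with the highest mean Cy5 signal stood for each gene or unnamed accession. Probes that cleared the background in the lung channel on 3 or more arrays (29316) were fitted with limma 3.58.1 in R 4.3.3, with 7 group means, moderated tests, 18 comparisons and Benjamini-Hochberg adjustment at 0.05. The script was tested on simulated data. No spot was saturated. The number of arrays limits the precision.

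The members and lists were chosen with earlier results of these data known. Values by array, in 1 treated group and the controls with the lowest, median and highest treated array (for Mki67 in all groups), are given for Mki67 and Top2a, for the brightest member of each role and the one with the largest pooled 54 µg change, and for members with an unadjusted p under 0.01; the 3 smallest p of each pathway list and the 10 genes most correlated with the member mean are named. Kif11, Aurka and Cdc6 were singled out after their values were seen. Names came from RefSeq accessions (27235 of 55681 probes). Alternatives covered background, normalization, filter, probe choice, array weights, slide, the deposited table and leaving out each array.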

Additional observations from a re-analysis of the deposited data

Results flagged for a closer look

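In 9 of 216 tests of a group of 4 to 10 arrays, 1 array lay far from the rest by Dixon's criterion, which chance alone meets in about 1 of 20 groups. All 5 among the controls were replicate 1, on the high side. Its mean over the members was -2.41, with the nearest control at -2.92. Its Rrm1 ratio was -2.64 (nearest -2.87), that of Ccna2 -2.78 (nearest -4.01), that of Ccne1 -1.63 (nearest -2.01) and that of Aurka -3.28 (nearest -3.91). The members share this array and move together, so these are not separate events. Replicate 5 at 54 µg of NRCWE-044 stood apart in 3 genes of mitosis and S phase, with Ccna2 at -3.28 (nearest -3.73), Aurka at -3.23 (nearest -3.66) and Cdc20 at -2.78 (nearest -3.57). Replicate 4 at 54 µg of NRCWE-043 stood apart in Pcna alone, at -1.52 (nearest -1.88). Each member was also compared between materials at the same dose, in 210 combinations of a member and a pair of materials. In 0 of these did every array of one material lie above the control mean and every array of the other below it. That mean includes control replicate 1.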

How the results depend on the processing

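In each setting run, with 34 arrays left out in turn, 0 members were called in the 18 comparisons. Within slides, the difference of the member mean from the controls turned negative on slide 1, which holds control replicate 1: it was -0.193 and -0.113 for NRCWE-043 at 18 and 54 µg, -0.266 and -0.139 for NRCWE-044 at 18 and 54 µg, and -0.113 and -0.328 for NRCWE-045 at those doses. On slide 2 it was 0.414 and 0.271 for NRCWE-043 at 18 and 54 µg, 0.367 and 0.291 for NRCWE-044 and 0.152 and 0.316 for NRCWE-045. On slide 3 it was 0.349 and 0.063 for NRCWE-043 at 18 and 54 µg and, at 54 µg, 0.254 for NRCWE-044 and 0.241 for NRCWE-045, and on slide 5 it was 0.272 and 0.456 for NRCWE-044 at 18 and 54 µg and 0.083 for NRCWE-045 at 54 µg. With the lung channel alone, quantile normalized, Top2a turned to -0.0086 for NRCWE-043 at 18 µg, -0.0137 for all 18 µg and -0.0078 for all 54 µg arrays; the cause was not tested. The number of probes called between NRCWE-043 and NRCWE-045 at 18 µg was 126, and 0 to 397 over the other settings that kept all arrays; leaving out single arrays it was 0 (without NRCWE-045 18 µg replicate 2) to 428 (without NRCWE-043 18 µg replicate 4). At 54 µg of NRCWE-044 against the controls it was 0, and up to 31 with array weights. No paired analysis was possible because the labels carry no replicate numbers; the slide was used as a block instead. Dim members (Cdc6, Cdk1, Kif2c) lie near background, which limits what their values can show.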
